A study of Mus musculus with 24 samples.

Results

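The genes described here are 28 genes of cholesterol synthesis, sterol uptake and export, and the control of the transcription factor SREBP2, measured by RNA sequencing of mouse liver. They were listed by symbol, with earlier results of these data known, and each of the 28 matched 1 of the 41388 genes in the count files. Of these 28 genes, 27 had enough reads to be tested, among 16757 genes tested in all; Npc1l1 did not. The samples form a factorial design of knockout (KO) and control mice, fasted for 18 h or fed ad libitum. KO livers came from mice labelled LSALT2KO, a liver-specific knockout of alanine transaminase 2, the product of Gpt2, and control livers from mice labelled fl/fl, which carry the floxed gene without its deletion. No Cre line, strain or age is stated in the labels. The groups used were KO fasted (n = 6), KO fed (n = 6), control fasted (n = 5) and control fed (n = 5). Whether every library is a separate animal is not stated in the labels, and the p-values therefore reflect the spread among these libraries alone.

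Liver cells make cholesterol from acetyl-CoA through mevalonate, farnesyl diphosphate, squalene and lanosterol. When membranes of the endoplasmic reticulum are poor in sterol, the escort protein SCAP carries SREBP2 to the Golgi, where proteases release the part that enters the nucleus and activates the genes of this pathway. When sterol is plentiful, INSIG proteins hold SCAP and SREBP2 back. In bulk tissue, fewer cells of a type and less RNA per cell cannot be told apart.

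Of 24 labelled libraries, 22 were used, with 18.4 to 55.3 M reads assigned to genes. The file of control fed replicate 6 was cut short and was left out. The library labelled control fasted replicate 4 was left out because its markers were those of another organ: 7 hepatocyte genes summed to 2716 CPM (reads per M reads assigned to genes) and 7 kidney genes to 21732 CPM. In the other 22 libraries the hepatocyte genes summed to 71606 to 134069 CPM and the kidney genes to 20.8 CPM at most. Gpt2, the targeted gene, lay at 52.1 to 148 CPM in KO fasted, 48.3 to 78.0 CPM in KO fed, 557 to 795 CPM in control fasted and 307 to 447 CPM in control fed livers, so every KO library was below every control library.

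SREBP2 is known to bind sterol regulatory elements together with the CCAAT-binding factor NF-Y and with Sp1. RefSeq promoter windows (GRCm38.p6, 250 bases before to 50 after the start) were matched for 24 of the 28 genes, and not for Fdft1, Fdps, Sqle and Stard4. On either strand, CCAAT stood in the windows of 22 of the 24 genes, against 41.1% of all 27025 genes with a window. The Sp1 motif GGGCGG stood in 19 of 24 genes, against 38.2% of all genes. One form of the sterol regulatory element, TCACNCCAC, stood in 1 of 24 genes, Hmgcs1, against 1.44% of all genes. The 160 bases before the start are shown for Hmgcs1, Idi1, Nsdhl and Ebp, 4 enzyme genes that fell with fasting in KO livers, and for Srebf2 and Scap, whose levels did not pass the test. They lie at chr13:119690191-119690350 (plus strand), chr13:8885446-8885605 (plus), chrX:72918361-72918520 (plus), chrX:8193513-8193672 (minus), chr15:82147109-82147268 (plus) and chr9:110333128-110333287 (plus). Capitals mark CCAAT, which reads ATTGG on the other strand, and in Hmgcs1 also TCACCCCAC. These matches are letters in a window and were not tested as binding sites. The windows of Scap and of Acat2 held no CCAAT, although Acat2 fell with fasting in both genotypes. CCAAT stood in windows of Abcg5, Abcg8 and Ggps1, which were not called, and of Mylip, which rose. The windows of Abcg5 and Abcg8, which lie head to head, share 209 bases.
Hmgcs1: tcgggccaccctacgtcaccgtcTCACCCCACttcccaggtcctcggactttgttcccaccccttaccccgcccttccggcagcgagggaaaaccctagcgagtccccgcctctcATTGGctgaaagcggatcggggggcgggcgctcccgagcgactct
Idi1: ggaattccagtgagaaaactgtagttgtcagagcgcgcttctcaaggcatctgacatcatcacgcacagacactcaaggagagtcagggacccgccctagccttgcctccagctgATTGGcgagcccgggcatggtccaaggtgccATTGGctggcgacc
Nsdhl: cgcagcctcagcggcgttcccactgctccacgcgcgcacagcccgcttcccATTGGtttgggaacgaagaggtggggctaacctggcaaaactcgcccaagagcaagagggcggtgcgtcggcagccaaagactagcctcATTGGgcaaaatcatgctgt
Ebp: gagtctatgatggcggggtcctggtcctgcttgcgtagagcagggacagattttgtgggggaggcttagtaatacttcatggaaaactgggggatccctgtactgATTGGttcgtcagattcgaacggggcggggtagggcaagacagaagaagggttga
Srebf2: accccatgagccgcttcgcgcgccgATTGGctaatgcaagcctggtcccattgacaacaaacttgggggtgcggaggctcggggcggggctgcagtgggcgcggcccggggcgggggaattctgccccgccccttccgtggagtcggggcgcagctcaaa
Scap: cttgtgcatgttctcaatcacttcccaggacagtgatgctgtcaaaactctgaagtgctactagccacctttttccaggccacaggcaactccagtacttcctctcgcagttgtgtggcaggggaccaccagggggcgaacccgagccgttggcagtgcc

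Fasting lowered most of the synthesis pathway in KO livers, and fewer of its genes were called lower in control livers. In KO livers, 19 of the 27 tested genes fell and 1 rose, at an adjusted p under 0.05 (edgeR quasi-likelihood test, Benjamini-Hochberg adjustment over all 16757 genes); of all genes tested, 3.26% were called lower and 2.88% higher. The median log2 fold change (fasted over fed) was -1.74 over the 27 genes and 0.01 over all genes. Because the genes were chosen with earlier results of these data known, the comparison with all genes is a description. In control livers, 7 of the 27 genes fell and 1 rose, against 4.13% of all genes called lower and 3.99% called higher, with a median of -0.84 over the 27 genes and 0.00 over all genes. All 8 genes called in control livers were also called in KO livers, in the same direction; the other 12 genes called in KO livers were not called in control livers, a difference that the interaction test given further on did not show. Among the 19 enzymes alone, 16 were called lower in KO livers (median -1.96) and 7 in control livers (median -1.05). Fasted and fed libraries did not overlap, with fasted lower, for 18 of the 27 genes in KO livers (2.15% of all genes) and for 7 in control livers (4.03% of all genes); with fasted higher, no member was free of overlap in either (1.81% and 3.87% of all genes). With scaling by library totals in place of TMM, 36.7% of the genes called in KO livers were higher, against 46.9% with TMM.

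The mevalonate arm fell as a whole in KO livers, with all 6 enzymes called lower (median -2.16), against 3.26% of all genes. In control livers 2 of the 6 were called lower (median -1.14), against 4.13% of all genes. All 6 had negative log2 fold changes there too, from -1.59 to -1.02. No interaction term of the 6 passed (smallest edgeR adjusted p 0.997), so the counts show no difference between the genotypes. Hmgcs1, the cytosolic HMG-CoA synthase (GRCm38 chr13:119690462-119708086, plus strand), had a lowest, median and highest level of 68.6, 164 and 305 CPM in KO fasted livers, against 649, 782 and 1307 CPM in KO fed livers. The ranges did not overlap, and Hmgcs1 was 5.03-fold lower in fasted KO livers (log2 -2.33 ± 0.48 SE, edgeR adjusted p = 0.0042). In control livers Hmgcs1 lay at 540, 318, 74.9, 169 and 105 CPM in the fasted libraries, against 831, 462, 334, 569 and 243 CPM in the fed libraries. The first 2 fasted libraries of the control group stood inside the fed range, and the difference was not called (log2 -1.02 ± 0.50 SE, edgeR adjusted p = 0.28).

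Acat2, the cytosolic acetoacetyl-CoA thiolase that starts the pathway (chr17:12942890-12960747, minus strand), had a narrow spread. It had a lowest, median and highest level of 18.6, 24.3 and 30.7 CPM in KO fasted livers, against 64.1, 83.6 and 99.2 CPM in KO fed livers. In control livers the fasted libraries held 45.4, 29.8, 23.2, 25.7 and 25.6 CPM, against 88.3, 53.7, 54.8, 61.6 and 52.5 CPM in control fed libraries. Neither pair of groups overlapped, and Acat2 fell in both genotypes, with log2 -1.74 ± 0.16 SE in KO livers (edgeR adjusted p = 8.1e-09) and -1.05 ± 0.17 SE in control livers (adjusted p = 9.1e-05). Reads of Acat2 may be shared with its close paralog Acat3 and are uncertain to that degree.

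Pmvk, phosphomevalonate kinase, was the other enzyme of this arm called in both genotypes. Its means were 19.3 ± 5.8 CPM in KO fasted and 79.3 ± 16.9 CPM in KO fed livers (SD, n = 6 each), with log2 -2.04 ± 0.27 SE. In control livers they were 19.4 ± 7.0 CPM fasted and 58.0 ± 26.0 CPM fed (SD, n = 5 each), with log2 -1.59 ± 0.30 SE. The edgeR adjusted p was 4.3e-05 in KO livers and 0.0014 in control livers.

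Idi1, the isomerase that makes dimethylallyl diphosphate (chr13:8885501-8892451, plus strand), had the highest ratio of highest to lowest library of the tested members in KO fasted livers, 14.3. Its lowest, median and highest levels were 2.48, 17.4 and 35.5 CPM in KO fasted livers, against 55.1, 78.8 and 130 CPM in KO fed livers, a 5.08-fold lower mean (log2 -2.34 ± 0.57 SE, edgeR adjusted p = 0.015). Levels in control fasted libraries were 43.4, 24.04, 5.31, 15.6 and 10.8 CPM, against 72.9, 47.3, 29.7, 48.0 and 18.9 CPM in control fed libraries, and the change was not called (log2 -1.13 ± 0.60 SE, edgeR adjusted p = 0.32). The KO groups were separate, whereas the highest 2 fasted control libraries lay above the lowest fed control library.

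Mvk, mevalonate kinase, and Mvd, the decarboxylase that follows Pmvk, were called in KO livers alone in the fit reported. Mvk averaged 16.9 ± 7.7 CPM in KO fasted and 59.1 ± 19.5 CPM in KO fed livers (SD, n = 6 each), and Mvd 12.6 ± 8.6 CPM in KO fasted and 61.9 ± 30.6 CPM in KO fed livers. Their edgeR adjusted p was 0.0081 for Mvk and 0.029 for Mvd. The Mvd call depended on single libraries: without KO fasted replicate 3, 4, 5 or 6, or without KO fed replicate 1, its edgeR adjusted p was 0.0591 to 0.0747. In control livers Mvk had log2 -1.14 ± 0.43 SE (edgeR adjusted p = 0.13, and 0.0337 without control fasted replicate 1), and Mvd had log2 -1.20 ± 0.65 SE (edgeR adjusted p = 0.33). Both control differences were called in limma voom with sample weights and in limma voom with a random block for clusters of title numbers. For Mvd the adjusted p was 0.00952 to 0.0419 in these voom fits, and for Mvk the lowest was 0.0131.

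**Figure D1:**
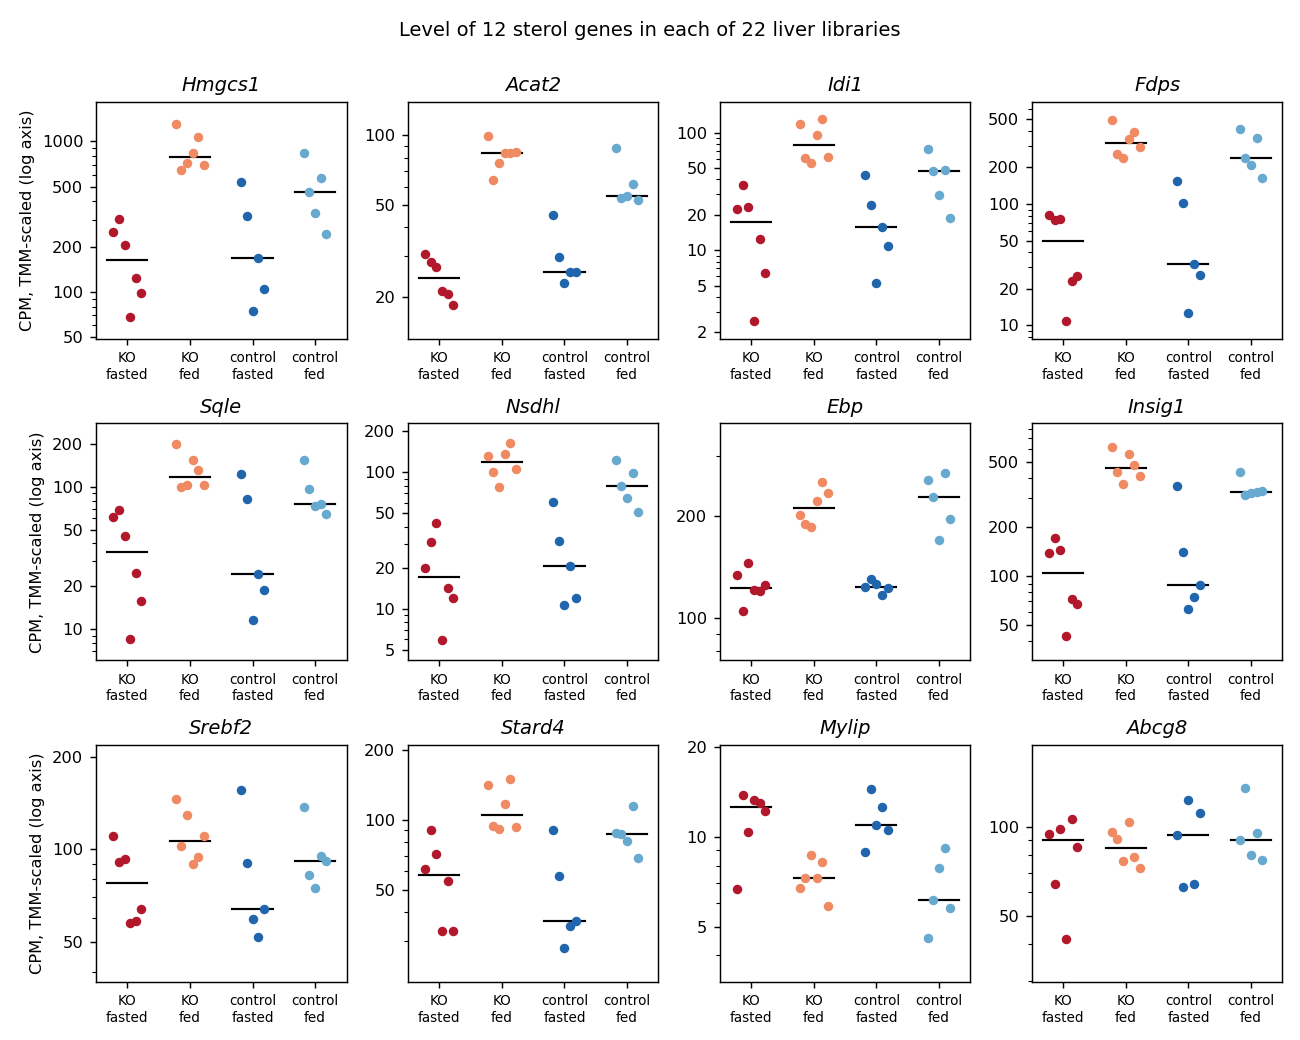
TMM-scaled CPM of 12 genes on a log axis, 1 point per library and a line at the group median, with a separate vertical range for each gene. KO fasted libraries of Hmgcs1, Acat2, Idi1, Fdps, Sqle, Nsdhl, Ebp and Insig1 all lie below the KO fed libraries, while Srebf2 and Abcg8 overlap in both genotypes.

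Downstream, the prenyl and squalene steps fell in part: 3 of 5 enzymes were called lower in KO livers (Fdps, Fdft1 and Lss) and 1 of 5 in control livers (Fdps). Fdps, farnesyl diphosphate synthase (chr3:89093592-89101967, minus strand), had the largest fold change among the 27 genes in both genotypes. Its lowest, median and highest levels were 10.9, 49.8 and 81.6 CPM in KO fasted livers, against 240.0, 320 and 495 CPM in KO fed livers, 6.98-fold lower (log2 -2.80 ± 0.58 SE, edgeR adjusted p = 0.0048). The control fasted libraries had 155, 102, 12.6, 32.1 and 26.2 CPM, against 413, 240.1, 210, 349 and 164 CPM in control fed libraries, 4.20-fold lower (log2 -2.07 ± 0.62 SE, edgeR adjusted p = 0.046). Neither pair overlapped, although the highest fasted control library and the lowest fed one were close.

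The control call of Fdps rested close to the threshold. It was lost in 17 of 22 fits that each left out 1 library, with edgeR adjusted p from 0.0502 to 0.115, and kept without control fed replicate 5, control fasted replicate 1, KO fasted replicate 1, KO fasted replicate 4 or KO fasted replicate 5. Without control fasted replicate 1 its log2 fold change was -2.68.

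Sqle, squalene epoxidase, was not called although its KO ranges were separate. It ran from 8.498 to 68.9 CPM around a median of 35.1 CPM in KO fasted livers, against 99.7 to 199 CPM around a median of 117 CPM in KO fed livers. The log2 fold change was -1.81 ± 0.56 SE (edgeR adjusted p = 0.064). It passed without KO fasted replicate 2, without control fasted replicate 1 or 3, and in 4 other settings including DESeq2, with adjusted p from 0.00227 to 0.0478. Among controls, the fasted libraries held 123, 81.9, 11.6, 24.5 and 18.8 CPM, against 154, 95.7, 73.4, 75.5 and 64.4 CPM in control fed libraries, which overlap (log2 -0.84 ± 0.60 SE, edgeR adjusted p = 0.52).

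Fdft1, squalene synthase, averaged 76.7 ± 38.1 CPM in KO fasted and 248 ± 63 CPM in KO fed livers (SD, n = 6 each; log2 -1.69 ± 0.39 SE, edgeR adjusted p = 0.010). Lss, lanosterol synthase, averaged 32.9 ± 16.4 CPM in KO fasted and 128 ± 39 CPM in KO fed livers (log2 -1.96 ± 0.45 SE, edgeR adjusted p = 0.011). In control livers both had smaller, uncalled differences, -0.75 ± 0.42 SE for Fdft1 and -0.76 ± 0.48 SE for Lss. The exons of Fdft1 overlap the opposite strand of Ctsb over 26.8% of their length, and reads of the 2 genes cannot be told apart there without a stated strand setting. Ggps1, which makes geranylgeranyl diphosphate for protein prenylation, was the exception of this group. It had 36 to 203 reads per library, averaging 3.48 ± 0.62 CPM in KO fasted and 3.25 ± 1.31 CPM in KO fed livers, and 3.49 ± 0.70 CPM in control fasted and 1.98 ± 0.51 CPM in control fed livers. Neither fasting contrast was called (log2 0.11 in KO and 0.81 in control livers, edgeR adjusted p = 0.95 and 0.14).

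Of the steps that turn lanosterol into cholesterol, 7 of 8 enzymes were called lower in KO livers (median -1.78), against 3.26% of all genes. In control livers 4 of 8 were called lower (median -0.97), against 4.13% of all genes. No interaction term of the 8 passed, so these counts show no difference between the genotypes. Nsdhl, a sterol dehydrogenase of the demethylation complex encoded on the X chromosome, had 5.88, 17.0 and 42.5 CPM as its lowest, median and highest level in KO fasted livers, against 77.4, 118 and 163 CPM in KO fed livers (5.70-fold lower, log2 -2.51 ± 0.47 SE, edgeR adjusted p = 0.0019). Control fasted libraries held 60.8, 31.2, 10.7, 20.5 and 11.97 CPM, against 123, 79.8, 65.3, 98.8 and 50.9 CPM in control fed libraries. Only the first fasted control library reached into the fed range, and the difference stood just outside the threshold (log2 -1.63 ± 0.50 SE, edgeR adjusted p = 0.0512). It was called in 10 of 31 other settings, among them the fits without control fed replicate 5, control fasted replicate 1, KO fasted replicate 3 or KO fasted replicate 4, with adjusted p from 0.00139 to 0.05.

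Cyp51, the lanosterol demethylase, and Msmo1, the methylsterol oxidase, followed the same course. Cyp51 averaged 72.9 ± 39.9 CPM in KO fasted and 296 ± 93 CPM in KO fed livers (SD, n = 6 each; log2 -2.02 ± 0.46 SE, edgeR adjusted p = 0.0092), and 89.6 ± 65.3 CPM in control fasted and 190 ± 76 CPM in control fed livers (SD, n = 5 each; log2 -1.09 ± 0.49 SE, adjusted p = 0.22). Msmo1 averaged 74.4 ± 50.1 CPM in KO fasted and 290 ± 101 CPM in KO fed livers (log2 -1.96 ± 0.54 SE, edgeR adjusted p = 0.033). The Msmo1 call was lost without KO fasted replicate 5 or 6 and without KO fed replicate 1, 4, 5 or 6, with edgeR adjusted p from 0.0501 to 0.0809. In control livers Msmo1 had log2 -0.76 ± 0.57 SE and was not called.

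Dhcr7, the reductase that forms cholesterol in the last step (chr7:143823145-143848410, plus strand), fell in both genotypes. It lay between 28.7 and 71.1 CPM, with a median of 46.2 CPM, in KO fasted livers, against 148 to 246 CPM, with a median of 176 CPM, in KO fed livers (log2 -1.96 ± 0.29 SE, edgeR adjusted p = 0.00016). The 5 fasted controls held 97.1, 73.6, 32.0, 38.4 and 35.6 CPM, against 216, 129, 103, 131 and 114 CPM in control fed libraries (log2 -1.33 ± 0.31 SE, edgeR adjusted p = 0.010). The fasted and fed ranges were separate in each genotype.

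Sc5d, the sterol desaturase before Dhcr7, also fell in both. It averaged 193 ± 60 CPM in KO fasted and 588 ± 114 CPM in KO fed livers (SD, n = 6 each; log2 -1.61 ± 0.22 SE, edgeR adjusted p = 3.7e-05), and 189 ± 77 CPM in control fasted and 475 ± 69 CPM in control fed livers (SD, n = 5 each; log2 -1.33 ± 0.24 SE, adjusted p = 0.00071).

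Ebp, the sterol isomerase, moved less and with little spread. It lay between 105 and 145 CPM, with a median of 123 CPM, in KO fasted livers, against 185 to 253 CPM, with a median of 211 CPM, in KO fed livers. In controls it was 123, 130.4, 126, 117 and 122 CPM in the fasted libraries, against 255, 227, 169, 268 and 195 CPM in control fed libraries. No fasted library reached a fed one, and Ebp fell by 0.77 ± 0.11 (SE) in KO livers (adjusted p = 6.9e-06) and by 0.85 ± 0.12 in control livers (adjusted p = 6.8e-06) on the log2 scale in edgeR.

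Tm7sf2, a sterol reductase of the same stretch, fell by 0.67 ± 0.15 (SE) on the log2 scale in KO livers (adjusted p = 0.0051) and by 0.61 ± 0.17 in control livers (adjusted p = 0.019), with overlapping ranges. Its control call was lost without control fasted replicate 3, 5 or 6 and without control fed replicate 1 or 4, with edgeR adjusted p from 0.0513 to 0.0996, and 15.3% of its exon length overlaps Vps51 on the same strand. Hsd17b7, the ketoreductase of the demethylation complex, was the enzyme of this stretch that was not called. Its means were 69.3 ± 22.9 CPM in KO fasted and 93.9 ± 24.9 CPM in KO fed livers (log2 -0.44 ± 0.26 SE, edgeR adjusted p = 0.49), and 79.0 ± 26.6 CPM in control fasted and 59.8 ± 16.5 CPM in control fed livers (log2 0.40 ± 0.29 SE, adjusted p = 0.52).

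Of the 3 genes of SREBP2 control, Insig1 fell and Srebf2 and Scap did not pass the test. Insig1 (chr5:28071363-28078662, plus strand) encodes the sterol-dependent anchor of SCAP, and its gene is itself a known SREBP target. Its lowest, median and highest levels were 42.8, 105 and 171 CPM in KO fasted livers, against 366, 457 and 616 CPM in KO fed livers (4.50-fold lower, log2 -2.17 ± 0.40 SE, edgeR adjusted p = 0.0017). The 5 fasted controls held 359, 140, 63.1, 75.1 and 88.8 CPM, against 436, 316, 324, 328 and 335 CPM in control fed libraries. The KO ranges were separate, while the first fasted control library lay inside the fed range and the others far below it. The control difference was not called over all libraries (log2 -1.26 ± 0.43 SE, edgeR adjusted p = 0.083); it was called without control fasted replicate 1, where log2 was -1.92, and in 3 other settings, with adjusted p from 0.00161 to 0.0498.

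Srebf2, the gene of SREBP2 (chr15:82147266-82205376, plus strand), had 57.8, 77.6 and 110 CPM as its lowest, median and highest level in KO fasted livers, against 89.4, 106 and 146 CPM in KO fed livers. Control fasted libraries held 156, 90.1, 59.6, 52.1 and 64.1 CPM, against 137, 82.5, 74.8, 95.5 and 92.1 CPM in control fed libraries. Both pairs overlapped, and neither was called (log2 -0.50 ± 0.24 SE in KO and -0.19 ± 0.27 SE in control livers, edgeR adjusted p = 0.32 and 0.80). Scap averaged 153 ± 23 CPM in KO fasted and 203 ± 43 CPM in KO fed livers (log2 -0.41 ± 0.14 SE, edgeR adjusted p = 0.082), and 162 ± 41 CPM in control fasted and 174 ± 23 CPM in control fed livers (log2 -0.10 ± 0.15 SE, adjusted p = 0.83). The KO difference of Scap passed without KO fasted replicate 1, without control fasted replicate 5 and with library totals, with edgeR adjusted p from 0.0226 to 0.049.

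Among the genes of sterol uptake and movement, 2 were called lower and 1 higher in KO livers, and 1 was called higher in control livers. Stard4, a soluble carrier that moves sterol between membranes, averaged 57.2 ± 22.3 CPM in KO fasted and 114 ± 26 CPM in KO fed livers (SD, n = 6 each; log2 -0.998 ± 0.284 SE, edgeR adjusted p = 0.041), without overlap. Its call was lost in 11 of 22 fits that each left out 1 library, namely KO fasted replicate 1, 4, 5 or 6, KO fed replicate 1, 4 or 5, control fasted replicate 2, or control fed replicate 1, 2 or 3, with edgeR adjusted p from 0.0515 to 0.0931. Stard4 averaged 49.3 ± 25.4 CPM in control fasted and 87.8 ± 16.6 CPM in control fed livers (SD, n = 5 each; log2 -0.83 ± 0.31 SE, edgeR adjusted p = 0.12), a difference that was called without control fasted replicate 1 (edgeR adjusted p = 0.0123) and with a random block for clusters of title numbers (limma voom, adjusted p = 0.0167). Tmem97, a sterol-binding membrane protein of the endoplasmic reticulum, fell by 0.58 ± 0.15 (SE) on the log2 scale in KO livers (edgeR adjusted p = 0.0096) and had log2 -0.45 ± 0.16 SE in control livers (adjusted p = 0.082).

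Mylip, a ubiquitin ligase that marks lipoprotein receptors for degradation, was the member that rose. Its lowest, median and highest levels were 6.70, 12.5 and 13.8 CPM in KO fasted livers, against 5.87, 7.28 and 8.68 CPM in KO fed livers. Control fasted libraries held 8.92, 14.5, 11.0, 12.6 and 10.50 CPM, against 4.57, 6.13, 7.88, 9.14 and 5.77 CPM in control fed libraries. A single fasted library in each genotype, replicate 1, lay within the fed range. Mylip rose by log2 0.65 ± 0.20 SE in KO livers (edgeR adjusted p = 0.040) and 0.78 ± 0.22 SE in control livers (adjusted p = 0.018). The KO call was lost without KO fasted replicate 2, 4, 5 or 6 or KO fed replicate 1, 2, 4 or 6 (edgeR adjusted p 0.07 to 0.0969). It was also lost with library totals, without a filter beyond 1 count, with the kidney-like library kept, in limma voom with sample weights and with a random block for clusters of title numbers (adjusted p 0.0528 to 0.155, over all 13 of 31 settings that lost it). The control call was lost without control fasted replicate 2 or control fed replicate 1 (edgeR adjusted p 0.0581 to 0.0614).

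Npc1l1, the sterol uptake transporter known from the intestine, totalled 4 reads in KO fasted, 4 in KO fed, 1 in control fasted and 18 in control fed livers, 16 of the last in 1 library, and was not tested. The export pair Abcg5 and Abcg8, whose products form the transporter that moves sterol into bile, was not called in either genotype. Abcg8 had 41.7, 90.1 and 106 CPM as its lowest, median and highest level in KO fasted livers, against 72.6, 85.1 and 104 CPM in KO fed livers. Control fasted libraries held 94.0, 62.6, 123, 64.0 and 112 CPM, against 90.3, 136, 80.5, 95 and 77.3 CPM in control fed libraries, so the groups overlapped throughout. Log2 fold changes were -0.08 ± 0.21 SE in KO and -0.07 ± 0.23 SE in control livers for Abcg8, and -0.17 ± 0.29 SE and -0.19 ± 0.31 SE for Abcg5.

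**Figure D2:**
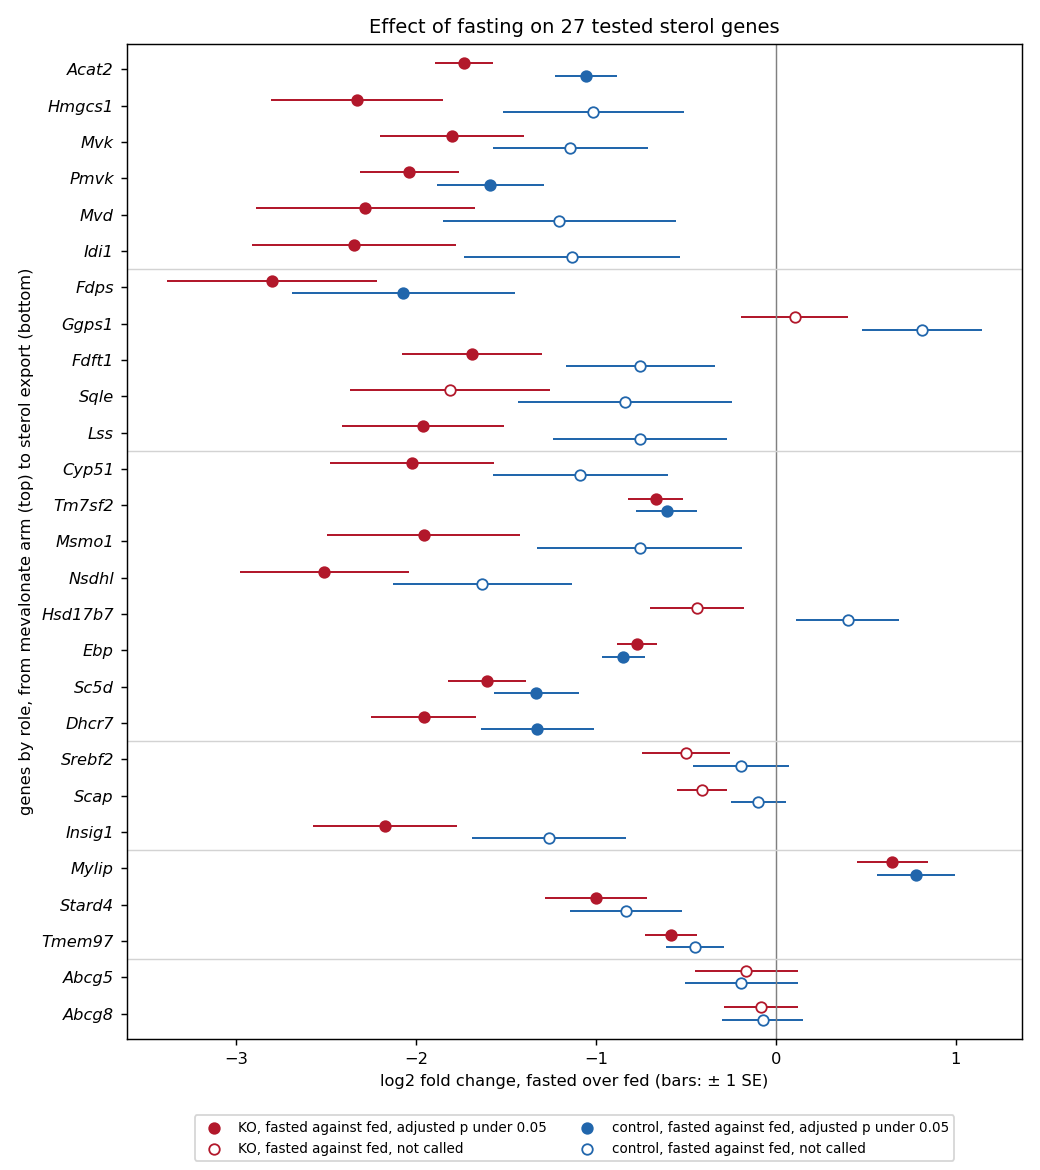
Log2 fold change (fasted over fed) of 27 genes with bars of 1 SE, KO livers in red and control livers in blue; filled points passed an edgeR adjusted p under 0.05. The 19 filled red points left of 0 span -2.80 (Fdps) to -0.58 (Tmem97), Mylip is filled right of 0 in both genotypes, and Abcg5 and Abcg8 are open and near 0.

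The mean level of the enzymes covered a wider range in fasted than in fed livers of the same genotype. The mean over the 19 enzymes of log2 CPM, set against control fed livers, was -0.75, -0.69, -0.75, -2.37, -1.59 and -1.75 in KO fasted replicates 1 to 6, against 0.21 to 0.96 in KO fed libraries. In control fasted replicates 1, 2, 3, 5 and 6 it was -0.04, -0.55, -1.92, -1.40 and -1.67, against -0.52 to 0.65 in control fed libraries. Control fasted replicate 1 had the highest level in its group for 17 of the 19 enzymes, and control fasted replicate 2 was among the highest 2 for 18 of the 19. KO fasted replicate 4 was the lowest of its group for 12 enzymes. Among fed livers, KO fed replicate 1 was highest for 11 enzymes and control fed replicate 1 for 16.

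The levels of Cyp4a14 and Srebf1 are given here for control fasted replicates 1 and 2 beside the other libraries. Why the enzymes stood higher in these 2 replicates was not tested. Cyp4a14, a fatty acid hydroxylase and PPARα target, was chosen after its values were seen, as was its pairing with Srebf1. The values are therefore a description. Cyp4a14 lay at 4370 to 8078 CPM in KO fasted and 45.0 to 337 CPM in KO fed livers. In control fasted replicates 1 and 2 it was 5357 and 6825 CPM, within the 4679 to 7022 CPM of the other fasted controls and above the 17.6 to 209 CPM of control fed livers. Srebf1, the gene of the related factor SREBP1, was 98.2 and 45.3 CPM in the same 2 libraries, against 209 to 716 CPM in control fed livers. Without control fasted replicate 1, 12 of the 27 genes were called in control livers instead of 8. The median log2 fold change over the 27 was -1.28 instead of -0.84. Over all genes, 1199 were called in that fit instead of 1360. Without control fed replicate 1, the highest fed control library, 5 of the 27 genes were called, and 1174 over all genes.

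**Figure D3:**
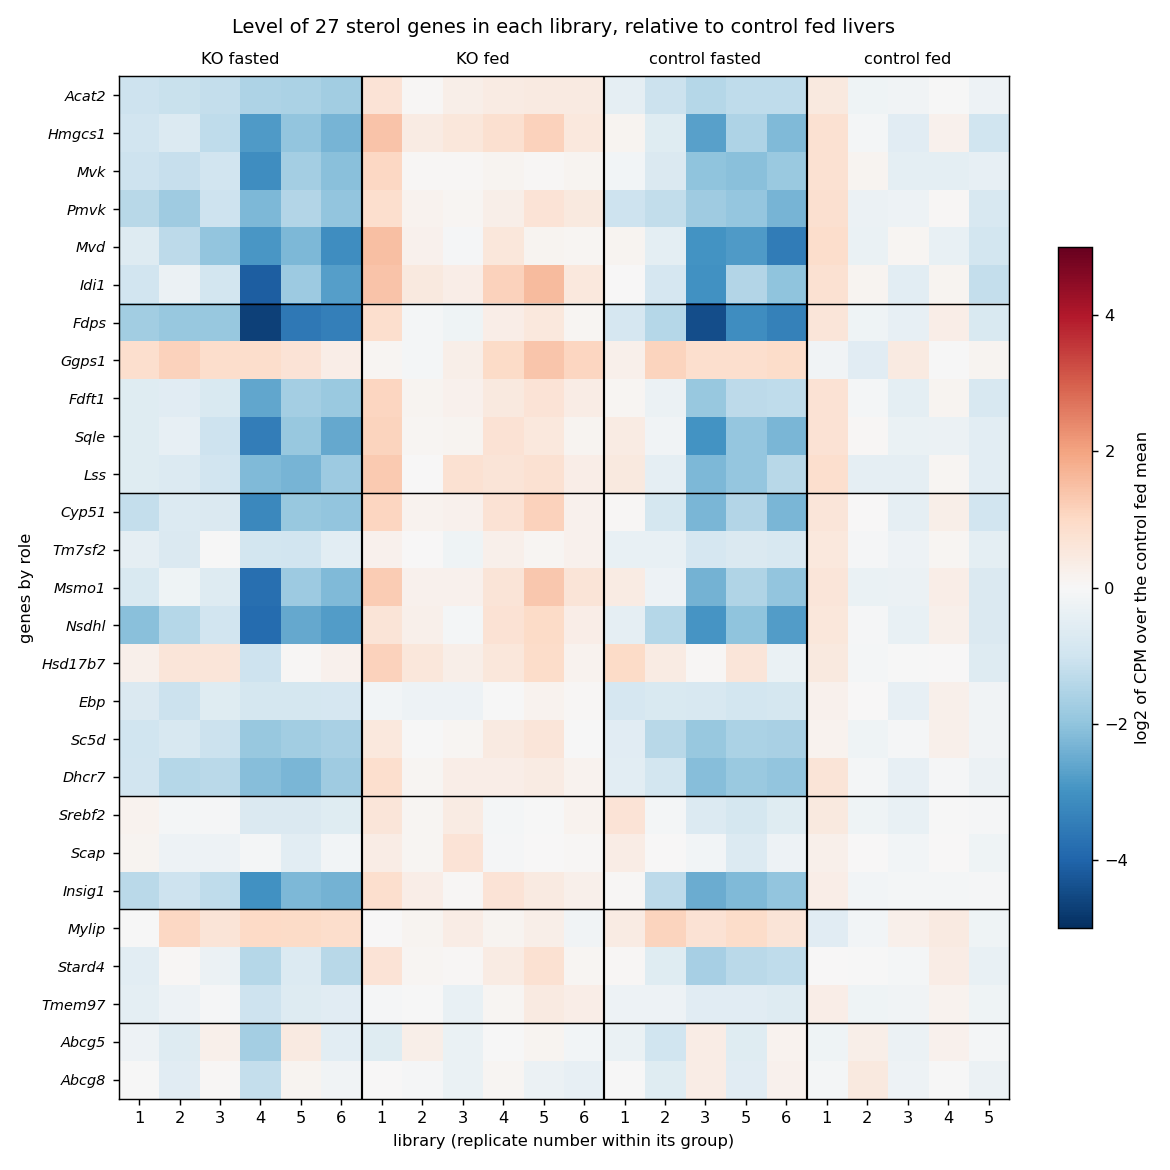
Log2 ratio of CPM to the control fed mean for 27 genes (rows, by role) in 22 libraries (columns, by group and replicate number), blue for lower and red for higher. In KO fasted replicates 4 to 6 and control fasted replicates 3, 5 and 6 most enzyme rows and Insig1 are blue. In control fasted replicate 1 most are near white. Ggps1 is red in all 11 fasted libraries and in most KO fed libraries.

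**Figure D4:**
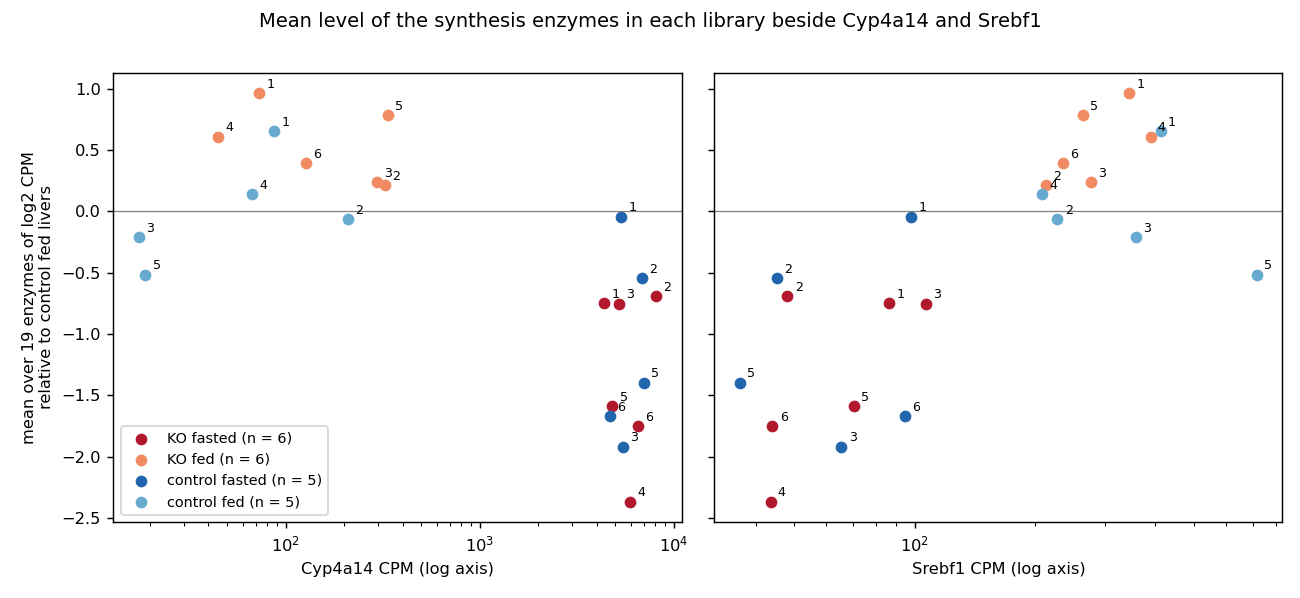
Mean over 19 enzymes of log2 CPM relative to control fed livers (vertical) against Cyp4a14 (left) and Srebf1 (right) in CPM on log axes, 1 point per library, numbered by replicate. All 11 fasted libraries lie right of the fed ones in Cyp4a14 and left of them in Srebf1, while their enzyme means run from -2.37 to -0.04. Cyp4a14 and its pairing with Srebf1 were chosen after the values were seen.

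Within groups, most members went up and down together from library to library. Deviations of log2 CPM from the group means were compared over the 22 libraries between each gene and the mean of the other enzymes; the libraries share their depth and scaling, and the values are a description. The median Pearson r of the 19 enzymes was 0.91, from -0.06 for Ggps1 to 0.98 for Fdft1, while over all 16757 genes the median r with the enzyme mean was 0.00 and the 5th to 95th percentile ran from -0.39 to 0.40. Hsd17b7, an enzyme that was not called, had r of 0.82. Outside the enzymes, Insig1 (0.92), Stard4 (0.90), Srebf2 (0.81) and Tmem97 (0.74) also followed them. The r of Srebf2 was 0.91 in KO fasted, 0.15 in KO fed, 0.91 in control fasted and 0.79 in control fed livers, and within KO fed livers that of Tmem97 was 0.38. Within control fed livers the r of Stard4 was 0.56. Over all libraries Scap (0.41), Ebp (0.30), Abcg8 (0.13), Abcg5 (0.02) and Mylip (-0.30) followed the enzyme mean less. The r of Scap was 0.11 in KO fasted, -0.17 in KO fed, 0.71 in control fasted and 0.97 in control fed livers. In the same order it was 0.55, -0.41, -0.65 and 0.002 for Abcg5, and 0.53, 0.37, -0.44 and 0.22 for Abcg8. For Ebp, which fell clearly with fasting, r within groups was 0.15 in KO fasted, 0.44 in KO fed, 0.24 in control fasted and 0.71 in control fed livers.

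Loss of Gpt2 was not accompanied by a called change in any of the 27 genes in either feeding state. In fed livers 0 of 27 genes passed in the comparison of KO with control, against 1 of 16757 genes in all (0.00597%). The same 0 of 27 and 0.00597% held for fasted livers and for the interaction, which asks whether fasting acted differently in the genotypes. At an unadjusted p under 0.05 in edgeR, 3 genes passed in fed livers (Acat2, Hsd17b7 and Ggps1, smallest adjusted p 0.46), 0 in fasted livers and 2 in the interaction (Acat2 and Hsd17b7, smallest adjusted p 0.997). These are 11.1%, 0% and 7.41% of the 27 genes, against 9.01%, 4.01% and 4.69% of all genes tested. DESeq2 and limma voom also called 0 members in each. At an unadjusted p under 0.05 DESeq2 found 3 members in fed livers, 0 in fasted livers and 3 in the interaction. Voom with sample weights found 9, 0 and 7. For these methods the share of all genes at that threshold is not given. Their counts therefore have no background to be read against.

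The fed genotype differences nevertheless leaned one way in size. In fed livers the KO mean was above the control mean for 24 of the 27 genes, with a median log2 difference of 0.39, against 0.00 over all genes. In fasted livers 22 of 27 were below, with a median of -0.21. Accordingly 25 of 27 interaction terms were negative (median -0.68), none of which passed; the contrasts share libraries, and the genes move together within groups, so these counts are no independent support. Hmgcs1 averaged 882 ± 258 CPM in KO fed and 488 ± 228 CPM in control fed livers (SD, n = 6 and 5), a log2 difference of 0.85 ± 0.48 SE with overlapping ranges (edgeR adjusted p = 0.66). Its interaction term was -1.32 ± 0.68 SE, the largest of the 27. Idi1 averaged 86.9 ± 32.1 CPM in KO fed and 43.4 ± 20.6 CPM in control fed livers, log2 1.001 ± 0.575 SE (edgeR adjusted p = 0.66). Acat2 averaged 81.7 ± 11.6 CPM in KO fed and 62.2 ± 15.03 CPM in control fed livers, and its interaction term was -0.68 ± 0.23 SE (edgeR adjusted p = 0.997). Ebp differed least, at 214 ± 27 CPM in KO fed and 223 ± 41 CPM in control fed livers (log2 -0.06 ± 0.11 SE).

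Per kilobase of exon, in the deposited RPKM, the members spanned a wide range of levels. Sc5d, Fdps and Hmgcs1 were the most abundant, with mean levels over the 4 groups of 156, 147 and 139 RPKM. Fdps had 38.8 ± 25.3 RPKM in KO fasted and 280 ± 82 RPKM in KO fed livers, and 49.3 ± 42.6 RPKM in control fasted and 221 ± 83 RPKM in control fed livers (SD). Sc5d had 82.3 ± 26.3 RPKM in KO fasted and 259 ± 52 RPKM in KO fed livers, so that in KO livers it lay above Fdps in the fasted state and not in the fed state. Insig1 and Ebp followed, at 100.2 and 74.5 RPKM over the groups. The lowest tested members were Lss (6.67 RPKM), Mylip (3.02 RPKM) and Ggps1 (1.29 RPKM). Lss was counted over 10787 exon bases, the most of the members, and its low RPKM depends on this length.

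Other genes of sterol metabolism moved in both directions with fasting. The lists here and below are set beside all genes tested. Of these, 3.26% were called lower and 2.88% higher in KO livers, and 4.13% and 3.99% in control livers. Of 15 further genes of SREBP processing and sterol sensing, 3 were called higher and 2 lower in KO livers, and 3 higher and 3 lower in control livers, with medians of 0.10 and -0.14. Srebf1 had log2 fold changes of -2.10 ± 0.34 SE in KO and -2.498 ± 0.375 SE in control livers, and passed in both. Insig2, which anchors SCAP as Insig1 does, went the other way from Insig1: it averaged 272 ± 107 CPM in KO fasted and 101 ± 28 CPM in KO fed livers (log2 1.43 ± 0.26 SE, edgeR adjusted p = 0.0011), and 239 ± 78 CPM in control fasted and 128 ± 22 CPM in control fed livers (log2 0.91 ± 0.28 SE, adjusted p = 0.049). Its control call was lost in 16 of 22 fits that each left out 1 library, with edgeR adjusted p from 0.0509 to 0.139. These were the fits without any 1 of control fed replicates 1 to 5, control fasted replicates 2, 3, 5 or 6, KO fed replicates 2, 4, 5 or 6, or KO fasted replicates 1, 5 or 6. Sec23a, a coat protein of the vesicles that leave the endoplasmic reticulum, rose by log2 0.58 ± 0.11 SE in KO livers. In control livers it rose by 0.41 ± 0.12 SE (edgeR adjusted p = 0.024). Erlin1, which binds SREBP-SCAP-INSIG complexes, fell by 0.54 ± 0.13 (SE) in KO livers. In control livers it fell by 0.56 ± 0.15 (SE, edgeR adjusted p = 0.012). Each control call was lost in 2 of 22 fits that each left out 1 library.

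Of 13 tested genes for other sterol and isoprenoid steps, 2 rose and 1 fell in each genotype. Por, the reductase that feeds electrons to Cyp51 and Sqle among many other enzymes, rose by log2 1.11 ± 0.16 SE in KO and 1.501 ± 0.179 SE in control livers. Acat1, the mitochondrial thiolase, rose by 0.61 ± 0.12 SE and 0.78 ± 0.13 SE, and Cyb5r3, a cytochrome b5 reductase, fell by 0.76 ± 0.11 (SE) and by 1.03 ± 0.12. Of 17 genes for cholesterol storage, endosomal movement and efflux, only Npc2, an endosomal sterol carrier, was called in KO livers (log2 -0.49 ± 0.11 SE). A single call among 17 genes is near the share of all genes called. In control livers 0 of the 17 passed in edgeR, DESeq2 or limma voom, and 4 had an unadjusted p under 0.05 in edgeR; Npc2 had log2 -0.36 ± 0.12 SE there.

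Of 8 bile acid synthesis genes, 1 rose and 2 fell in KO livers, and 2 rose and 2 fell in control livers. Over all genes tested, 2.88% were called higher and 3.26% lower in KO livers, and 3.99% and 4.13% in control livers. Cyp8b1, which sets the make-up of bile acids, rose by log2 0.67 ± 0.18 SE in KO and 1.502 ± 0.199 SE in control livers, and its KO call was lost without KO fed replicate 4 or KO fasted replicate 3 or 6 (edgeR adjusted p 0.0531 to 0.0555). Hsd3b7, which acts early in bile acid synthesis, fell by 0.64 ± 0.11 (SE) in KO and by 0.46 ± 0.12 in control livers. Of 15 genes of fatty acid synthesis, 1 rose and 7 fell in KO livers, and 2 rose and 9 fell in control livers, with a median of -0.73 in each. Acly, ATP citrate lyase, averaged 108 ± 20 CPM in KO fasted and 336 ± 45 CPM in KO fed livers, and 102 ± 22 CPM in control fasted and 323 ± 43 CPM in control fed livers (SD). Acss2, the cytosolic acetyl-CoA synthetase, averaged 59.3 ± 11.5 CPM in KO fasted and 279 ± 75 CPM in KO fed livers, and 64.1 ± 12.3 CPM in control fasted and 231 ± 90 CPM in control fed livers. The log2 fold changes were -1.64 ± 0.13 SE in KO and -1.67 ± 0.14 SE in control livers for Acly, and -2.24 ± 0.22 SE and -1.85 ± 0.24 SE for Acss2. Elovl5, of the same list, went the other way. It rose by log2 1.09 ± 0.13 SE in KO livers (edgeR adjusted p = 3.3e-07) and by 1.68 ± 0.14 SE in control livers (adjusted p = 6.9e-10).

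Some markers of other cell types moved with fasting beside these genes. Over all genes tested, 3.26% were called lower and 2.88% higher in KO livers, and 4.13% and 3.99% in control livers. The 6 stellate cell markers summed to 81.5 to 135 CPM in KO fasted and 123 to 171 CPM in KO fed livers, and to 66.3 to 106 CPM in control fasted and 104 to 138 CPM in control fed livers; Col3a1 was called lower in both genotypes and Col1a1 in control livers. The 6 Kupffer cell markers summed to 94.5 to 225 CPM in KO fasted and 137 to 198 CPM in KO fed livers, and to 88.1 to 117 CPM in control fasted and 103 to 163 CPM in control fed livers; 0 were called by edgeR, DESeq2 or limma voom, and 1 in each genotype had an unadjusted p under 0.05 in edgeR. Of 6 endothelial markers, with sums of 132 to 216 CPM in KO fasted, 141 to 197 CPM in KO fed, 119 to 155 CPM in control fasted and 90.7 to 145 CPM in control fed livers, Lyve1 was called higher in both genotypes. The 6 cholangiocyte markers, 5 of them tested, summed to 21.9 to 33.5 CPM in KO fasted, 26.0 to 39.5 CPM in KO fed, 16.8 to 36.9 CPM in control fasted and 27 to 63.9 CPM in control fed livers, and Spp1 was called lower in control livers.

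The 6 pancreas markers summed to 5.99 to 8.27 CPM in KO fasted and 11.9 to 31.3 CPM in KO fed livers, and to 3.26 to 9.11 CPM in control fasted and 26.6 to 38.7 CPM in control fed livers. Cela1 made up 91.9% to 98.2% of the summed level in the 4 groups and was called lower in both genotypes, while Pnlip was at 0 in all 22 libraries. The 5 intestine markers summed to 172 to 1334 CPM in KO fasted and 58.9 to 130 CPM in KO fed livers, and to 253 to 1629 CPM in control fasted and 45.5 to 133 CPM in control fed livers; Apoa4 and Fabp2 were called higher in both genotypes, with Alpi and Cdh17 at 0 throughout. Of 7 hepatocyte markers Hnf4a was called higher in KO and Apoa1 in control livers. Of 7 kidney markers, 6 of them tested, 0 were called by edgeR, DESeq2 or limma voom, with 0 in KO and 1 in control livers at an unadjusted p under 0.05. The part of these markers in the fall of the sterol genes was not tested.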

How the data were processed

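Oligo-dT selected liver RNA was sequenced in 24 libraries. The deposited counts are reads per gene made with bcl2fastq, STAR 2.5.1a and featureCounts 1.4.6-p5 on GRCm38, per the submitters' processing notes; the strand setting is not given in the sources used here. The deposited CPM (count over the library's total) and RPKM (CPM per kilobase) are the authors' values per the file headers, and both were checked against the counts.

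Counts of 22 libraries (18.4 to 55.3 M reads) in 4 groups entered 1 robust quasi-likelihood fit in edgeR 4.0.16 (R 4.3.3), with TMM factors, filterByExpr (minimum count 10, total 15) and Benjamini-Hochberg adjustment over 16757 genes at 0.05. SE is |log2 fold change| divided by √F. Levels are CPM scaled by TMM; logarithms used a prior count of 2. Of all genes, 97.3% had a symbol from GENCODE M21. No library pair within a group was a duplicate (50 pairs, chi-square per degree of freedom 37.4 to 323). The procedure was tested on simulated counts. Alternatives were RLE factors, library totals, other filters, DESeq2 1.42.0, limma 3.58.1 voom, only the groups compared, the kidney-like library kept, title-number clusters as a random block, and leaving out each library. The 28 genes and the lists were chosen with earlier results of these data known. All 28 were named, in detail those called in a contrast and 7 fixed ones, and of each other list at most 4 genes by smallest p.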

Additional observations from a re-analysis of the deposited data

Results flagged for a closer look

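In 8 of 108 sets of 1 gene in 1 group, a single library stood apart from the rest of its group by Dixon's test. Chance gives about 1 in 20 sets, but the genes move together within groups, so the sets are not independent. A single high library can give several flags, and all 8 came from 3 libraries. In KO fed replicate 1, Mvk was 98.7 CPM (next highest 53.0), Mvd 122 CPM (64.1) and Dhcr7 246 CPM (182). In control fasted replicate 1, Sc5d was 322 CPM (next highest 181) and Insig1 359 CPM (140). In control fed replicate 1, Acat2 was 88.3 CPM (next highest 61.6), Dhcr7 216 CPM (131) and Insig1 436.0 CPM (335). Each was the highest value of its group.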

How the results depend on the processing

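In KO livers 14 to 21 of the members were called over all 31 alternatives, against 20 in the fit reported (16 to 21 with 1 library left out). In control livers, where 8 were called, limma voom with clusters of close title numbers as a random block (correlation -0.0128) called 14. The count was 5 without control fed replicate 1, 5 to 12 with 1 library left out, 10 with DESeq2 and 6 with only the groups compared. Over all genes, calls in control livers were 1392, 1633 and 1248 with the block, DESeq2 and only the groups compared, against 1360. No member was called in a genotype comparison or the interaction under any alternative run, and no called fold change reversed. With the kidney-like control fasted replicate 4 kept, 14 members were called in KO and 7 in control livers, with Fdft1, Tm7sf2 and Tmem97 among those that lost their KO call, and calls over all genes were 379 instead of 1029 in KO and 805 instead of 1360 in control livers. DESeq2 called 64 genes in all, instead of 1, for KO against control in fed livers. The limma voom fit with the random block added Cyp51, Insig1, Mvd, Mvk, Nsdhl and Stard4 to the calls in control livers. In KO livers this fit added Sqle and lost Mylip. Voom without the block or sample weights was not run, so the block and the change of method cannot be told apart. The clusters are neighbouring title numbers, which the labels do not describe as pairs. No paired analysis was possible because the labels give the groups no shared replicate numbers. Without a filter beyond 1 count, Msmo1, Mylip and Stard4 lost their KO call and Fdps its control call; with only the groups compared, Msmo1 lost its KO call, and Fdps and Dhcr7 their control calls; in limma voom with sample weights Tm7sf2 lost its control call. Depth limits Npc1l1, which was not tested, and Ggps1, with 36 to 203 reads per library; the highest SE of a fasting effect was 0.65 (Mvd, control livers).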

Other observations

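In the library labelled control fasted replicate 4, whose markers are those of kidney, the sterol genes had levels unlike liver. As CPM of the file total, Mylip was 38.6 there, against 4.62 to 13.9 in the other 22 libraries, Fdps 8.69 against 9.60 to 510, Sc5d 26.3 against 112 to 750, Abcg5 0.716 against 15.9 to 84.0, and Abcg8 1.02 against 36.8 to 132. Hmgcs1, at 365, and Srebf2, at 107, lay within the range of the other libraries.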
